A study of Mus musculus with 2 samples.

Results

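The genes described here are the leptin receptor gene Lepr and members of the gp130 cytokine receptor pathway: the receptor genes Il6st, Il6ra, Osmr, Lifr and Il11ra1, the ligand genes Lif and Il6, and the signalling genes Stat3 and Socs3. They were taken as all probe sets whose platform gene symbol is exactly 1 of these 10 names. Of the 10 genes 9 were matched, by 26 of 34945 probe sets with 1 gene symbol, among 18193 named genes; Il11ra1 was matched by no probe set in the annotation used and was not analysed here. The set was chosen by the measured ratio of Lepr, which is among the largest rises on these arrays, so the Lepr values are a description and support nothing further.

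Superficial zone cells form the surface layer of articular cartilage. They came from femur and tibia joints of 4-day-old ICR mice and were kept in DMEM with 10% serum. One culture received no retinoic acid (control, n = 1) and the other 10 μM retinoic acid for 24 h (n = 1), and RNA of each was read on 1 Affymetrix Mouse Genome 430 2.0 array. There were no replicates, so no test was run, no difference has a replicate check, and every value speaks of these 2 arrays alone. Whether the cultures shared a preparation, and the number of animals behind each, is not stated in the labels.

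Cytokines of the interleukin 6 family signal through receptor complexes that contain gp130, the product of Il6st. Interleukin 6 and interleukin 11 first bind a ligand-specific receptor chain, whereas leukaemia inhibitory factor and oncostatin M pair gp130 with the products of Lifr or Osmr. The leptin receptor is a close relative of gp130 but pairs with itself. These receptors have no kinase of their own: they use JAK kinases, which activate STAT3, and STAT3 induces its feedback inhibitor gene Socs3. In joints these cytokines are known for their part in inflammation and matrix turnover, and leptin receptor marks stromal cells of the bone marrow.

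Values are MAS5 signals, a linear measure of brightness that combines the probes of a probe set. A signal at or below its own array's median (26.5 on the control and 29.7 on the retinoic acid array) was treated as too low to measure and raised to that floor. A fold is given where both signals are above the floor, and a bound ("at least") where 1 of them is. Trimmed mean signals were 183 (control) and 193 (retinoic acid), and all 7 chondrocyte and all 5 superficial zone markers read were above the floor on both arrays, though several differed widely between them, as given with the other cell markers. Log2 ratios run from control to retinoic acid. Probe sets of 1 gene on the same arrays differed by an SD of 0.30 in log2 ratio (4993 genes), which is not a spread between replicate cultures and can include differences between the transcript forms that probe sets read.

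Retinoic acid treatment went with higher signals of 2 receptor genes and a lower signal of the shared receptor chain. Lepr was at least 26.9-fold and Lifr 4.20-fold higher, while Il6st was 1.81-fold lower. The other measured members, Osmr, Il6ra, Lif, Stat3 and Socs3, lay within 2-fold, and Il6 was below both floors. Of 8 members measured, 2 were higher by 2-fold or more and 0 were lower by as much, against 6.62% and 4.4% of 11733 measured genes. By probe set, 6 of 21 measured were at least 2-fold higher, 3 each of Lepr and Lifr, and 1 at least 2-fold lower, against 6.57% and 3.83% of all measured probe sets. The choice of members used this same contrast, so nothing is read from these shares.

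**Figure D1:**
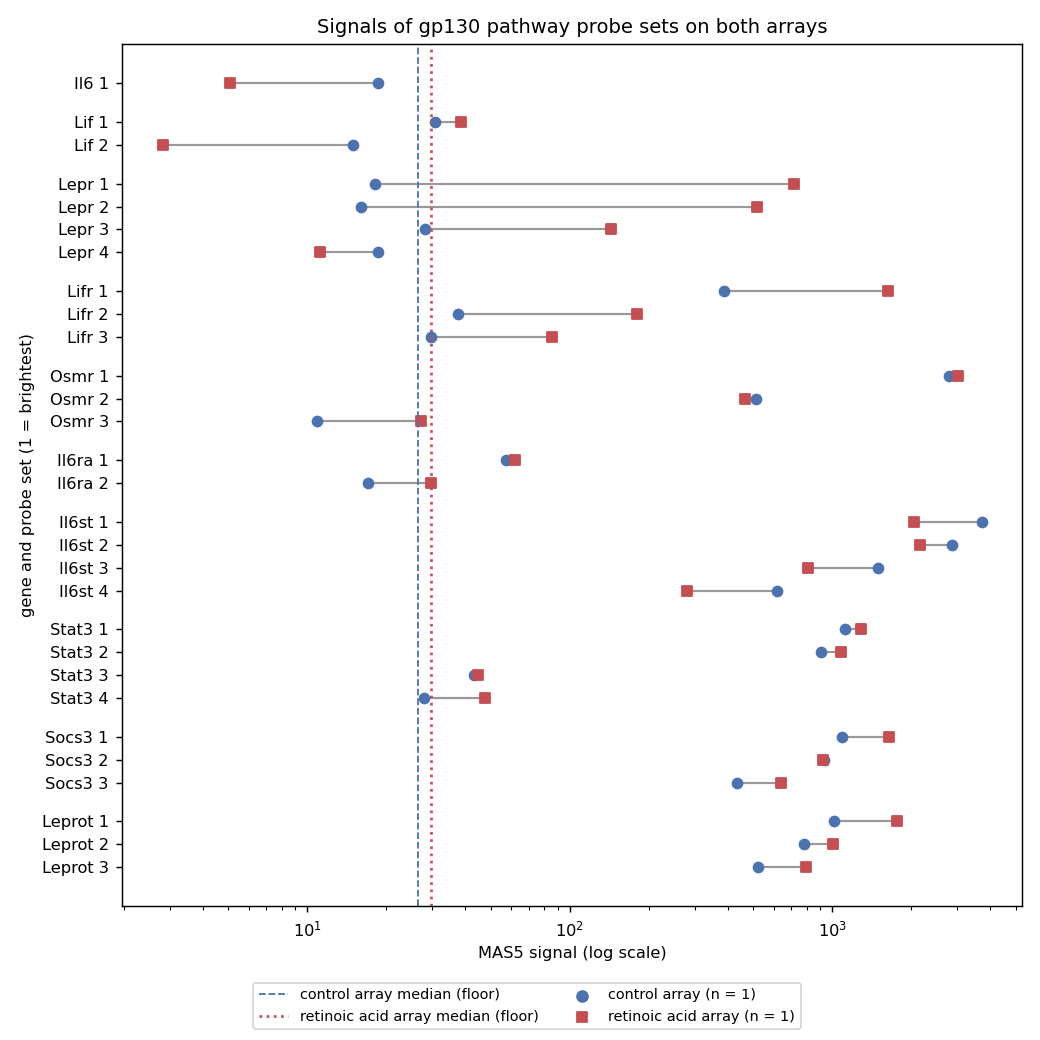
MAS5 signal (log scale) of each probe set of 9 members and of Leprot on the control array (blue circles) and the retinoic acid array (red squares), 1 array each; the vertical lines are the array medians used as floors, 26.5 and 29.7. Lepr probe sets 1 to 3 and all 3 Lifr probe sets lie to the right with retinoic acid, and all 4 Il6st probe sets lie to the left.

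Lepr encodes the receptor of leptin, a hormone made by fat cells. Its brightest probe set had a signal of 18.2 in control and 713 with retinoic acid, a bound of at least 26.9-fold because the control signal is below the floor. The next had 16.1 and 519, at least 19.6-fold. Another, with both signals above the floor, had 28.1 and 144, or 5.13-fold. The fourth had 18.6 and 11.2 and was not measured on either array. Thus 3 of 4 probe sets were higher with retinoic acid. Their log2 ratios were 2.36 for the probe set measured on both arrays, whose control signal was barely above the floor, and at least 4.29 and at least 4.75 for the brighter ones. Lepr is known to produce long and short receptor forms that differ in their intracellular tails. Which form each probe set reads is not given in the annotation used here. On the 2 arrays, the genes whose floored log2 signals lay nearest to those of Lepr were Lgr6, Rerg, Csn3, Lcp2 and Twist2, at distances of 0.092 to 0.30 log2 units. Like Lepr, Lgr6 (22.4 and 669), Csn3 (15.1 and 629) and Lcp2 (21.6 and 610) were below the control floor. Signals of different probe sets are not on a common scale and the Lepr control value is the floor, so this closeness describes only pairs of signals.

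Leprot, the neighbour of Lepr in the RefSeq gene order, encodes a membrane protein that limits the amount of leptin receptor at the cell surface. Unlike Lepr it was already bright in control, with signals of 1012, 783 and 521 on its 3 probe sets and 1771, 1006 and 795 with retinoic acid. All 3 were higher, by 1.75-fold, 1.28-fold and 1.53-fold, and none reached 2-fold. By their names, the brightest probe set may share probes with other sequences and the others match several transcripts of the gene, so Leprot has no value with unique probe sets. Its paralog Leprotl1 went the other way, at 962 and 633 in control against 743 and 541. The 2 probe sets were 1.29-fold and 1.17-fold lower. The leptin gene Lep was at 1.97 and 1.55, below the floor on both arrays.

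Lifr encodes the receptor chain that binds leukaemia inhibitory factor and pairs with gp130. Its probe sets had control signals of 388, 37.7 and 29.8 and retinoic acid signals of 1632, 181 and 85.6. All 3 were above the floor on both arrays and all were at least 2-fold higher, by 4.20-fold, 4.79-fold and 2.87-fold. The mean log2 ratio was 1.95 ± 0.38 (SD over 3 probe sets, not replicates). By its brightest probe set, Lifr had the 145th highest ratio among the 10722 genes with both signals above the floor.

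RefSeq windows at the annotated starts of all members were searched for the letters AGGTCA on both strands, whatever the ratio of the gene. These letters are a form of the retinoid receptor core motif. Each window ran from 250 bases before to 50 bases after a start (GRCm38.p6). The windows of Lepr and Lifr are shown because both genes were higher with retinoic acid. Both genes have 2 windows, whose 250 upstream bases follow 5′ to 3′. Capitals mark a match.

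Lepr window 1, chr4:101717157-101717406, plus strand: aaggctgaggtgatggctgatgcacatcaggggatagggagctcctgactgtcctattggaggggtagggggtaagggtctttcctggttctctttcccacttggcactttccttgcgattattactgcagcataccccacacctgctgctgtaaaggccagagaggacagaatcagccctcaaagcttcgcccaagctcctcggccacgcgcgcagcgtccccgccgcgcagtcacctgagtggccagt

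Lepr window 2, chr4:101717656-101717905, plus strand: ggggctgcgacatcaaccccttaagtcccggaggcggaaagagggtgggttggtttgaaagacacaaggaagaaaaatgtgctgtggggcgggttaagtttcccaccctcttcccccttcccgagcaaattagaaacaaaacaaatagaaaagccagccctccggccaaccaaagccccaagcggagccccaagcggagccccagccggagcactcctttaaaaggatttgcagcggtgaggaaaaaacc

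Lifr window 1, chr15:7129322-7129571, plus strand: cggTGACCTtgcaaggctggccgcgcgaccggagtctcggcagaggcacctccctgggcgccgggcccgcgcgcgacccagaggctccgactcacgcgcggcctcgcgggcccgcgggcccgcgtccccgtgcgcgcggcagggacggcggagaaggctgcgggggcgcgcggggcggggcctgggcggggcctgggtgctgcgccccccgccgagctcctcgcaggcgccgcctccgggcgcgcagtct

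Lifr window 2, chr15:7140292-7140541, plus strand: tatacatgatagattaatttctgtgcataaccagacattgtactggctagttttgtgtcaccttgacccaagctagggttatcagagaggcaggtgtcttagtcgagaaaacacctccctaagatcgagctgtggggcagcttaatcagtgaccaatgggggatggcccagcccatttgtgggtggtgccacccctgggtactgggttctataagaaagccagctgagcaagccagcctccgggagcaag

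Lifr window 1 held 1 match, at bases 4 to 9 and on the minus strand, so that it is printed as its reverse complement. It was the only match among 13 windows of the 10 members, whereas 16.3% of all 32851 windows hold it. Direct repeats of the same letters with a gap of 5 or of 2 bases, which contain the core motif, were in 0 of the 13 windows, and each kind was in 0.00913% of all windows. These are letter matches only. Other spellings of the core motif were not searched for, and nothing outside the windows was searched.

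Il6st encodes gp130. Its 4 probe sets had control signals of 3706, 2857, 1498 and 617 and retinoic acid signals of 2049, 2167, 808 and 281. All 4 were lower with retinoic acid, by 1.81-fold, 1.32-fold, 1.85-fold and 2.20-fold, and only the dimmest passed 2-fold. The mean log2 ratio was −0.82 ± 0.31 (SD over 4 probe sets, not replicates). Il6st by its brightest probe set had the 603rd lowest ratio among the 10722 genes. All 4 probe sets stayed well above the floor on both arrays.

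Osmr encodes the oncostatin M receptor chain. It was bright and nearly level, at 2794 in control and 3006 with retinoic acid by its brightest probe set and at 514 and 468 by the next, ratios of 1.08-fold higher and 1.10-fold lower. The probe sets thus differ in sign, by less than the scatter between probe sets, and the dimmest was not measured. Il6ra, which encodes the interleukin 6 binding chain, was dim, at 57.3 and 62.1, 1.09-fold higher. Its other probe set was not measured. Neither gene has a settled direction, since other processing turned the sign of each. Among the other receptor genes of the family, Cntfr, Il27ra, Il31ra and Csf3r were not measured on either array. Of 11 family receptors, 5 were measured and 2 were at least 2-fold higher, against 6.62% of all measured genes. These were Lepr, whose ratio chose the set, and Lifr. The median log2 ratio of the 5 was 0.12, against 0.011 over all measured genes, but 1.09 after the floor was raised to the 70th percentile and with unique probe sets.

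**Figure D2:**
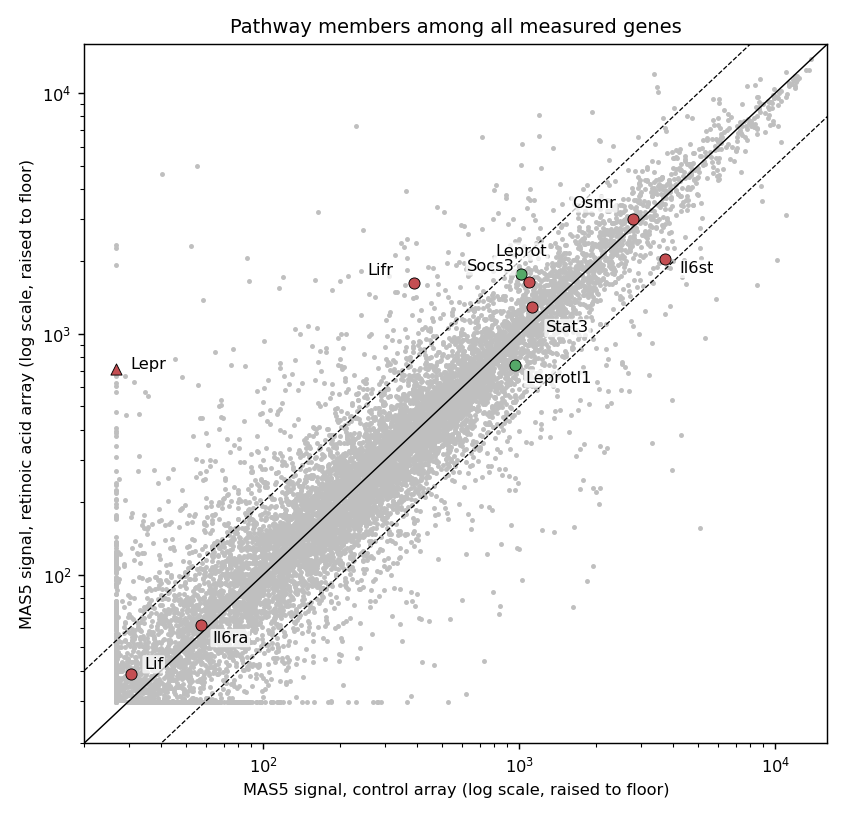
MAS5 signal on the control array (horizontal) against the retinoic acid array (vertical), both on log scales with low signals raised to the floor, for measured genes (grey), members (red) and the Lepr relatives Leprot and Leprotl1 (green). Dashed lines mark 2-fold; Lepr (triangle, a bound) and Lifr lie above them, and Il6st lies at 1.81-fold below the diagonal.

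Il6 and Lif, the ligand genes among the members, were near or below the floor. Il6, the gene of interleukin 6, had 18.6 in control and 5.09 with retinoic acid, both below the floor, and was not measured. Lif, the gene of leukaemia inhibitory factor, was barely above the floor by 1 probe set, at 30.6 and 38.6 (1.26-fold higher), and its other probe set was below it on both arrays. Of 12 gp130 ligand genes, 8 were matched and 4 measured, and 0 of these had a ratio or bound past 2-fold. The shares past 2-fold among all genes measured were small, 6.62% on the higher side and 4.4% on the lower. A count of 0 of 4 therefore says little about the ligands. Clcf1, which encodes a cytokine of the ciliary neurotrophic factor branch, came closest to 2-fold, at 263 and 138 (1.91-fold lower). Its 2 other measured probe sets were lower too. Ctf1, the gene of cardiotrophin 1, was at 140 and 195 (1.39-fold higher). Il11, the gene of interleukin 11, was at 23.6 and 37.7, at least 1.42-fold higher. The median log2 ratio of the ligands was 0.41 over these 4 genes, but −0.23 after the floor was raised to the 70th percentile and −0.0049 without a floor.

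Stat3 encodes the transcription factor that gp130 activates. Its probe sets had control signals of 1117, 908, 43.4 and 27.9 and retinoic acid signals of 1291, 1077, 44.6 and 47.5. All 4 were higher, by 1.16-fold, 1.19-fold, 1.03-fold and 1.70-fold, and 0 reached 2-fold. The widest ratio came from the dimmest probe set, which was close to the floor in control. Of the 4 other STAT genes measured 0 passed 2-fold: Stat6 was 1.28-fold higher, Stat5a was 1.46-fold lower on the same side as its other measured probe set, and Stat2 and Stat5b were 1.05-fold and 1.02-fold lower. The JAK kinase genes were measured in 4 of 4 and 0 passed 2-fold. With 6.62% of all measured genes at least 2-fold higher and 4.4% lower, 0 of 4 says little about the other STAT or the JAK genes. Jak1, the main kinase of gp130, was at 1245 and 1694 (1.36-fold higher), and its 2 other measured probe sets were higher too. Jak2, the kinase of the leptin receptor, was at 301 and 291, and Tyk2 at 129 and 131. Jak3 was at 57.4 in control and 1.43-fold lower with retinoic acid. The median log2 ratio was −0.025 for the 5 measured STAT genes, Stat3 included, and −0.014 for the JAK genes.

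Socs3 encodes the inhibitor that binds gp130 and the leptin receptor and shuts off their signal. Its probe sets had control signals of 1088, 932 and 433 and retinoic acid signals of 1648, 924 and 637. The brightest and the dimmest were 1.51-fold and 1.47-fold higher and the other was 1.01-fold lower. The brightest pair carry names that mark probes shared with other sequences. The mean log2 ratio was 0.38 ± 0.34 (SD over 3 probe sets, not replicates). The window at the annotated start of Socs3 was searched for the STAT letters TTCNNNGAA and the narrower TTCCNGGAA, both of which read the same on both strands. It is shown because it was the only 1 of the 13 member windows with the first motif, which 8.3% of all windows hold.

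Socs3 window, chr11:117969367-117969616, minus strand: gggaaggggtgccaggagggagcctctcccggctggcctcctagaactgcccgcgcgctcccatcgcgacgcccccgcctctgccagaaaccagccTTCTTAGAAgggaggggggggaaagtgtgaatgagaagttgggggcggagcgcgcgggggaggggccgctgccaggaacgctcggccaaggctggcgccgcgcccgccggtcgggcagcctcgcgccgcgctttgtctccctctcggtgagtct

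Capitals mark the match, at bases 97 to 105 of the window. The narrower motif, a special case of the first, was in 0 of the 13 windows and in 1.15% of all windows. The deposited values hold no measure of STAT3 binding.

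Genes listed as feedback inhibitors and phosphatases, other than Socs3, were mostly on the higher side. The list also holds the STAT inhibitor genes Pias1, Pias2 and Pias3 (1.22-fold, 1.15-fold and 1.12-fold higher) and Pias4 (1.03-fold lower). Of 16 measured, 14 had a log2 ratio above 0, and the median was 0.29. The 13 above the floor on both arrays lay within 2-fold, as did 89.9% of all genes above both floors. The other 3 of the list were bounds under 2-fold, whose true ratios can be larger. Over all measured genes 51.0% had a ratio above 0. Of the 14, Socs4, Ptpn11 and Socs6 were nearly level, with log2 ratios of 0.015, 0.044 and 0.059. The other measured probe sets of Socs4 had the opposite sign, and those of Ptpn11 and of Ptpn2 differed in sign. Socs5 was 1.68-fold higher (574 and 966). Cish, a feedback inhibitor gene of STAT5 signalling, was 1.37-fold higher (63.0 and 86.3). Socs1 was at 58.6 in control and 26.2, below the floor, with retinoic acid, at least 1.97-fold lower. The phosphatase genes Ptpre (21.0 and 51.8) and Ptpn6 (19.6 and 38.4) were below the control floor, at least 1.95-fold and 1.45-fold higher. The phosphatase gene Ptpn1, whose product acts on JAK2 downstream of the leptin receptor, was 1.40-fold higher (448 and 629).

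Genes commonly described as STAT3 targets went both ways. Of 26 measured, 2 passed 2-fold on the higher side and 3 on the lower side, and the median log2 ratio was 0.090. Fos, an immediate early transcription factor gene, was at 162 and 1062 (6.56-fold higher), and Birc5, which encodes the mitotic protein survivin, was at 177 and 403 (2.27-fold higher). Il1r1, the interleukin 1 receptor gene, was at 761 and 190 (4.00-fold lower). Steap4, a metalloreductase gene, was at 210 and 64.5 (3.25-fold lower), and Myc was at 746 and 321 (2.32-fold lower). The acute phase genes Saa3 and Lcn2 were 1.30-fold and 1.44-fold lower, and Lrg1 and Fgg were below the floor on both arrays. Hp, another acute phase gene, was on the other side, at 2.54 in control, below the floor, and 36.8, at least 1.39-fold higher. Many of these genes answer to other pathways as well, and the list holds Osmr, Stat3 and Socs3 themselves. Of the 60 measured pathway genes other than members, 2 were at least 2-fold higher and 3 lower, or 3.33% and 5%, against 6.62% and 4.4% of all measured genes.

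**Figure D3:**
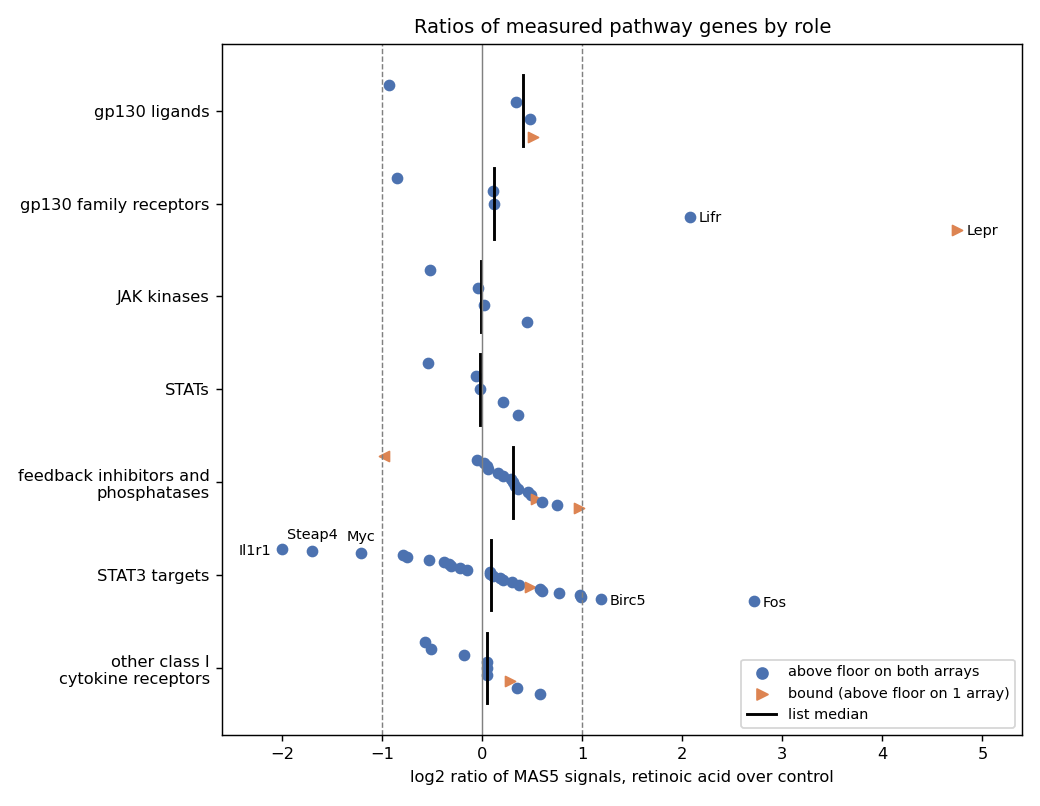
Log2 ratio of MAS5 signals, retinoic acid over control, of each measured gene in 7 lists ordered by role; circles are genes above the floor on both arrays, triangles are bounds, black bars are list medians and dashed lines mark 2-fold. Lepr and Lifr stand to the right of the other family receptors, and in the other lists only the STAT3 targets hold genes past 2-fold.

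Markers of cells that could carry these receptors were read beside them. In bulk RNA, fewer cells of a type and less RNA per cell cannot be told apart. For comparison with the marker counts that follow, 6.62% of all measured genes passed 2-fold on the higher side and 4.4% on the lower side. Markers of marrow stroma and pericytes were above the floor in 7 of 7 cases on both arrays, with a summed signal of 9179 in control and 15225 with retinoic acid. Of them Ebf3 (94.5 and 239) and Rgs5 (44.5 and 130) were at least 2-fold higher and Cspg4 (789 and 84.9) was 9.30-fold lower. The chemokine gene Cxcl12 was 1.78-fold higher, from 4538 to 8060. The sum rests mostly on Cxcl12, Pdgfrb (1.73-fold higher) and Foxc1 (1.93-fold higher). Kitl was 1.67-fold higher. Of the adipocyte markers Fabp4 was 11.0-fold higher (244 and 2689), while Adipoq and Lep were below the floor on both arrays. Of 8 leukocyte markers 6 were measured and 0 passed 2-fold, with Ptprc and Itgam below the floor on both arrays and summed signals of 585 and 642. Of 5 endothelial markers Pecam1, Cdh5, Tek and Emcn were below the floor on both arrays. Kdr was at 25.4 in control, below the floor, and 36.6 with retinoic acid, at least 1.38-fold higher. Chondrocyte markers were measured in 7 of 7 cases, and 4 of them were at least 2-fold lower, with summed signals of 40478 and 22071. Acan, the aggrecan gene, was 32.3-fold lower (5066 and 157), Sox9 10.8-fold (1024 and 94.8), Hapln1 9.37-fold and Matn3 7.99-fold. The sums rest mostly on Col2a1, Comp and Col9a1, which were 1.29-fold, 1.27-fold and 1.68-fold lower. Of 5 superficial zone markers, Clu was 5.97-fold higher and Prg4, Erg, Tnc and Abi3bp were 1.36-fold to 1.67-fold lower. Of 5 osteoblast markers 4 were measured. Sp7 and Alpl were 3.01-fold and 2.05-fold lower, and Ibsp 1.13-fold and Dmp1 at least 1.54-fold higher. Of 4 tendon and ligament markers, Scx was 2.38-fold, Kera at least 2.21-fold and Tnmd 1.21-fold lower, and Mkx was 1.90-fold higher. The other measured probe set of Scx had the opposite sign. The part of these shifts in the Lepr, Lifr and Il6st values was not tested.

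The size of the Lepr difference rests on the floor, since its brightest probe sets have no measured control signal. Its log2 ratio was 2.55 after the floor was raised to the 70th percentile and 5.30 without a floor, and it was above 1 under all 10 alternatives that gave a value. Lifr stayed between 1.99 and 2.07 and Il6st between −0.95 and −0.84 under all 11 alternatives.

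**Figure D4:**
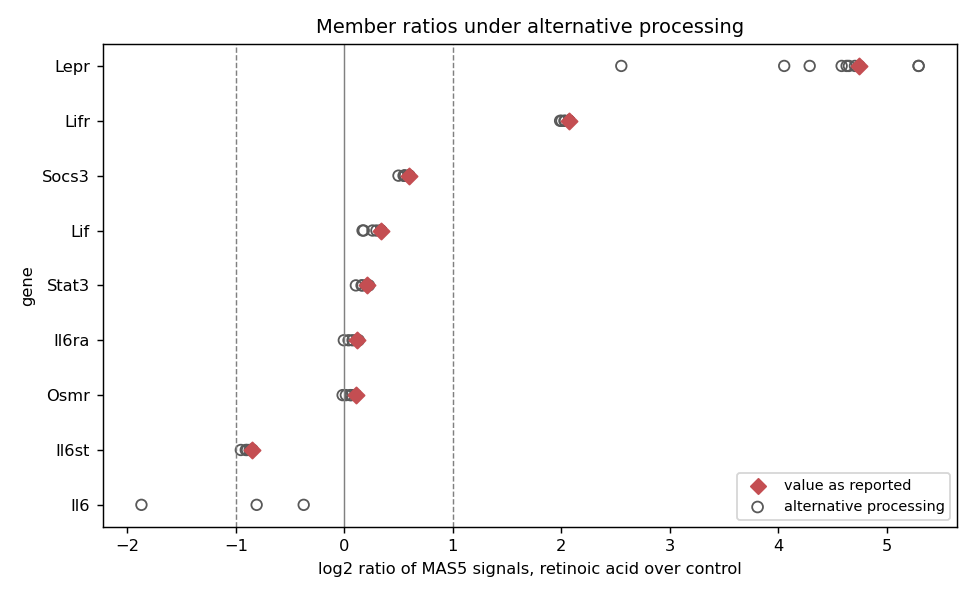
Log2 ratio of MAS5 signals, retinoic acid over control, of each member as reported (red diamonds) and under alternative processing (open circles); dashed lines mark 2-fold. Lepr spans 2.55 to 5.30, Lifr and Il6st hardly move, and Il6 has a value only under the 3 alternatives with a lower floor, no floor or an offset.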

How the data were processed

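Total RNA from 1 control and 1 retinoic acid culture was labelled from 100 ng and hybridised to 1 array each, per the labels' protocols. The deposited values are intensities, the linear signals of MAS5, which the submitters' processing notes name; neither its scaling target nor detection calls are stated there. They were used unscaled. Of 45101 probe sets 64 were controls, 932 with several symbols and 9160 with none were left out, and a gene was read from the probe set brightest on average (log2). The floor was each array's median. With 1 array per group, lists were described by counts and medians only. The members and lists were chosen with earlier results of these data known. Named genes were all members, Leprot, Leprotl1, Jak1, Jak2, Tyk2, Cish and Il11, up to 4 genes past 2-fold per pathway list (marker lists not included), and the 5 genes nearest to Lepr on the 2 arrays; other genes were picked with their values in view. Promoter windows were matched by symbol for 10 of 10 members and come from RefSeq (GRCm38.p6). The counting was checked on simulated data. Alternatives changed the floor, the scaling (including loess with a span of 0.3) and the probe set rule; restricting to genes above the floor on both arrays was an alternative chosen after seeing the data. Computation used Python 3.11.15 with pandas 2.3.3 and numpy 2.4.6, loess came from statsmodels 0.14.6, and plots were drawn in matplotlib 3.10.9.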

Additional observations from a re-analysis of the deposited data

How the results depend on the processing

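Under 11 alternatives, 196 of 216 recomputed values stayed within the scatter between probe sets (SD 0.30, or 1.5 times for a count), 20 did not, and 0 turned the sign of a value past 2-fold. The Lepr log2 ratio was 5.30 with the floor at the 30th percentile or with none, 2.55 with it at the 70th, 4.06 with the median as an offset and 4.29 as the median over probe sets. It has no value where both signals must pass the floor. Il6, which has no ratio at the median floor, had −0.81, −1.87 and −0.37 with the floor at the 30th percentile, no floor and the offset. Pathway genes at least 2-fold higher numbered 4, against 7 (30th percentile) and 11 (no floor); those lower numbered 3, against 11 (no floor) and 1 (unique probe sets). Over all genes 777 higher and 516 lower became 449 and 260 at the 70th percentile and 2137 and 2106 with no floor, and 832 were lower at the 30th. The family receptor median was 1.09 at the 70th percentile and with unique probe sets, and the ligand median −0.23 and −0.0049 at the 70th percentile and with no floor. The median of Lepr, Leprot and Leprotl1 was 0.81, but 2.19 with unique probe sets and 0.22 where both signals must pass the floor. Each floor changes which genes count as measured. The number of arrays limits precision throughout. No paired analysis was possible because each group holds 1 sample.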

Other observations

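Of 23 class I cytokine receptor genes outside the gp130 family 19 were matched and 9 measured. The 8 above the floor on both arrays lay within 2-fold, as did 89.9% of all genes above both floors. The log2 ratios of the 8 ran from −0.57 to 0.58. The other, Csf2rb, was at 7.89 in control, below the floor, and 32.2 with retinoic acid, a bound of at least 1.21-fold higher. With the bound at its value the median log2 ratio was 0.047. Ghr, which encodes the growth hormone receptor, was at 866 in control and 1100 with retinoic acid (1.27-fold higher), but only 1 of its 2 other measured probe sets had the same sign. Il4ra, which encodes the interleukin 4 receptor chain, was at 103 and 154 (1.49-fold higher), but its other measured probe set had the opposite sign. Crlf2, part of the receptor of thymic stromal lymphopoietin, was at 461 and 405. The 10 matched genes not measured on either array included the lymphocyte receptor genes Il2ra, Il2rb and Il7r.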
